A study of Mus musculus with 10 samples.

Results

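The genes described here encode plasma membrane, vesicular and lysosomal carriers of amino acids, neurotransmitters, creatine and taurine, in the solute carrier families Slc1, Slc3, Slc6, Slc7, Slc36, Slc38 and Slc43. They were taken by the gene symbol of the array platform, and 58 of 19057 genes with a single symbol matched. One of these, Slc7a6os, lies on the strand opposite to Slc7a6 and does not encode a transporter. It matched the symbol rule and was detected, so the counts of transporter genes in the text and figures include it. A gene was counted as detected when a probe had a detection p-value under 0.05 on 3 or more of the 10 arrays, which held for 36 of the 58 genes and for 11984 genes in all.

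RNA was measured in 5 MPNST-like and 5 pigmented melanomas, each hybridized to 1 array. MPNST-like tumors are amelanotic and are named after malignant peripheral nerve sheath tumors. All 10 were frozen skin tumors of C57BL6 mice of the genotype BrafV600E-CDK4R24C, in which tamoxifen on the skin for 4 days activated the mutant Braf allele and 1 topical dose of the carcinogen DMBA followed. The pigmented tumors thus carry the same alleles and had the same treatment. No label gives the age or sex of the mice or the cell type in which the recombinase acts. Nothing says whether the tumors came from separate mice. The p-values set group differences against the spread between these tumors and treat the 10 tumors as independent. They could be too small if some tumors share a mouse.

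Cells cannot make all amino acids and take them up through carriers that differ in substrate, in the ions that drive them and in the membrane where they sit. Slc1 carriers move glutamate or small neutral amino acids, and Slc6 carriers use the sodium gradient to take up neurotransmitters, creatine, taurine and amino acids. Slc7 proteins carry cationic amino acids alone, or act as light chains that need the heavy chain encoded by Slc3a2 or Slc3a1 to reach the membrane. Slc38 and Slc36 proteins move glutamine and other small amino acids at the cell surface or out of lysosomes, where amino acid levels are read by the kinase complex mTORC1. Pigment cells are rich in lysosome-related organelles, the melanosomes, and start melanin from the amino acid tyrosine.

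The promoters of 4 genes that fell in MPNST-like tumors are printed because 3 of them (Slc38a7, Slc36a1 and Slc38a9) encode lysosomal carriers and the other, Slc6a17, had the largest difference among the transporter genes. Each run holds the 250 bases before the gene start in RefSeq's GRCm38.p6 table, 5′ to 3′ on the gene's strand. Capitals mark matches to CACGTG or to TGANNNNGC, searched on both strands. CACGTG is the E-box, a motif that MITF, TFEB and other basic helix-loop-helix factors are known to bind. TGANNNNGC is a loose form of the core of the antioxidant response element, with all its middle bases free. It is called the antioxidant pattern here, and a match need not be such an element. The positions are chr3:107518019-107518268 on the minus strand for the more upstream of 2 listed starts of Slc6a17, chr8:95853492-95853741 on the minus strand for Slc38a7, chr11:55204090-55204339 on the plus strand for Slc36a1 and chr13:112660516-112660765 on the plus strand for Slc38a9.
Slc6a17: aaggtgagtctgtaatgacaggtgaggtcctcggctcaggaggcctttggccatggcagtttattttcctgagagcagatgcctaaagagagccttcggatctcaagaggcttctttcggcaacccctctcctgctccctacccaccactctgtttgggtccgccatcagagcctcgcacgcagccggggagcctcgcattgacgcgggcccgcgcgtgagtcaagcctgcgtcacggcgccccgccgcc
Slc38a7: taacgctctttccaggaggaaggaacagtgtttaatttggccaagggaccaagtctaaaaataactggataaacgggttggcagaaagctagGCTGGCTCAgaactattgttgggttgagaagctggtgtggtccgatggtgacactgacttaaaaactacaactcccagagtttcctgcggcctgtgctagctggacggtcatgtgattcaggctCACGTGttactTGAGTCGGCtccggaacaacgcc
Slc36a1: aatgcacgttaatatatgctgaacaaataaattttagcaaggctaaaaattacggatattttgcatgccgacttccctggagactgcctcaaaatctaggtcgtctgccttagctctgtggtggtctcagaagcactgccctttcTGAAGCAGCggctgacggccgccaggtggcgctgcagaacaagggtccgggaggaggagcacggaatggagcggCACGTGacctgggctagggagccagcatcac
Slc38a9: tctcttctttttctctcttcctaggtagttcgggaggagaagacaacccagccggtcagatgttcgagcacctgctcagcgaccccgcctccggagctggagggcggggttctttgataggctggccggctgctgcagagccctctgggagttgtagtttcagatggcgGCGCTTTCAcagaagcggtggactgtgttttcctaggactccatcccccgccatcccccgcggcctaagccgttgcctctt

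The E-box starts 34 bases before the gene start in Slc38a7 and 31 bases before it in Slc36a1, and neither Slc6a17 nor Slc38a9 holds one in these windows. E-boxes also stood before Slc1a6, Slc1a7, Slc38a5 and Slc43a1, which were not called, and before Slc6a3 and Slc7a14, which missed the detection filter. The window printed for Slc6a17 holds neither motif, and the window of its other start holds the antioxidant pattern. Of the 58 genes, 42 had a promoter in the table, with 63 windows in all since several genes have more than 1 start. An E-box stood in 8 of the 63 windows, against 6.02% of all 32841 promoter windows. The antioxidant pattern stood in 31 of the 63 windows, against 35.2% of all windows. The amino acid response core TGATGNAA stood in 4 of the 63, against 3.45%. Counted by gene over all its windows, 8 of the 42 genes held an E-box, 25 the antioxidant pattern and 3 the amino acid response core. Of the 11 genes with a promoter that were called different, 2 held an E-box, 8 the antioxidant pattern and 0 the amino acid response core. These are matches of letters and say nothing about binding.

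Array medians ran from 87.4 to 93.9 intensity units in MPNST-like and from 79.4 to 89 in pigmented tumors, with 19274 to 21581 and 17908 to 20120 detected probes. Levels below are log2 intensities after background correction and quantile normalization. The lowest detected probe stood at 4.45 to 4.57 on MPNST-like arrays and at 4.51 to 4.68 on pigmented arrays, so values near 4.5 are at background. All 10 melanocyte markers were lower in MPNST-like tumors, with a summed intensity of 203 to 26000 against 68100 to 74300 in pigmented tumors. Of 10 fibroblast markers 9 were higher and 0 lower, with a summed intensity of 30600 to 48900 in MPNST-like and 1580 to 18200 in pigmented tumors. Of 8 Schwann cell markers 4 were higher and 1 lower, of 6 tested mast cell markers 4 were higher and of 7 tested endothelial markers 3 were higher, with 0 lower in both. Macrophage markers are given beside Slc1a3 and Arg1. Of 10 tested keratinocyte markers 1 was higher and 0 lower. Of 11 skeletal muscle markers 0 were called, and their mean was 11.56 and 11.73 in MPNST-like 2 and 5 and 11.16 in pigmented 4, against 4.48 to 7.78 in the other tumors. The part of other cell types in the transporter levels was not tested. A keratinocyte covariate and fits with some tumors left out show only how far a difference moved. The keratinocyte mean was 9.45 to 9.70 in MPNST-like 2 to 5 and 6.75 in MPNST-like 1. It was 6.65 to 8.09 in pigmented tumors other than pigmented 4, which was at 9.49. Because it largely follows the groups, a change under the covariate cannot be assigned to keratinocytes. In whole tumors, fewer cells of a type and less RNA per cell cannot be told apart.

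Transporter genes went in both directions, with the largest decreases in Slc6a17 and Slc7a8 and the largest increase in Slc1a3. Of the 36 detected genes, 4 rose in MPNST-like tumors and 11 fell, with an adjusted p under 0.05 (limma with Benjamini-Hochberg adjustment over all 11984 genes). The called share, 41.7%, is close to the 38.8% of all genes tested. By direction, 18.6% of all genes were higher and 20.2% were lower. The median log2 difference, MPNST-like minus pigmented, was 0.01 over the 36 genes and 0.011 over all genes. The filter keeps genes detected in only 1 group, so these counts describe the detected genes and do not set them apart from others. Of the 36 genes, 8 fell by at least 1 on the log2 scale, against 8.8% of all genes, and 2 rose by at least 1, against 10.6% of all genes. The groups did not overlap for 11 of the 36 genes, 2 of them higher and 9 lower, against 25.9% of all genes (12.1% higher and 13.8% lower).

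**Figure D1:**
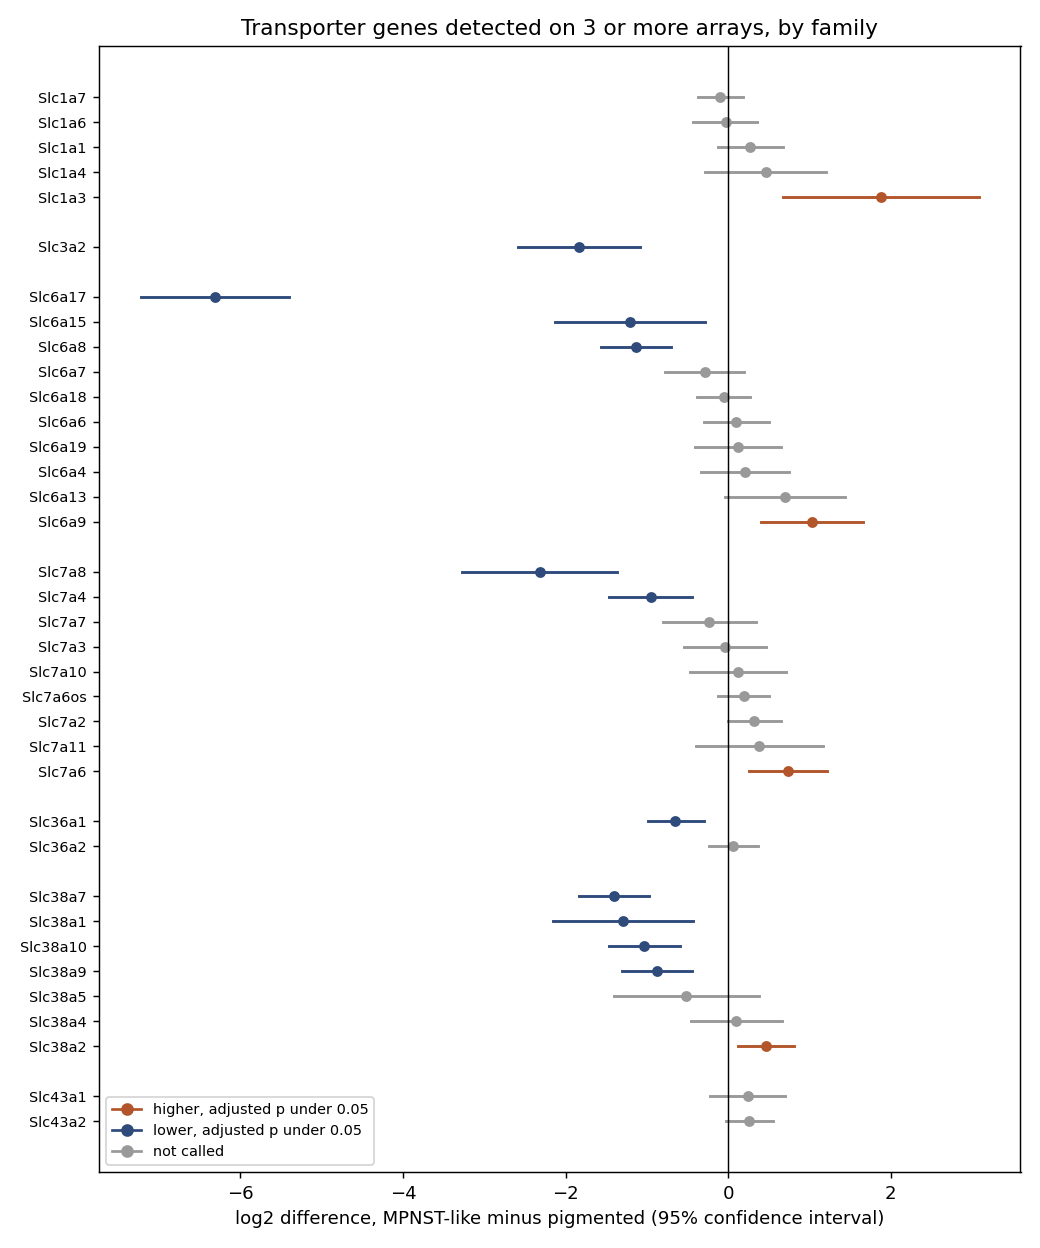
Log2 difference, MPNST-like minus pigmented, of the 36 detected transporter genes (points) with its 95% confidence interval (lines), grouped by family; orange marks the 4 genes called higher, blue the 11 called lower and grey the 21 not called. Slc6a17 lies far to the left of the other genes, at -6.31.

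**Figure D2:**
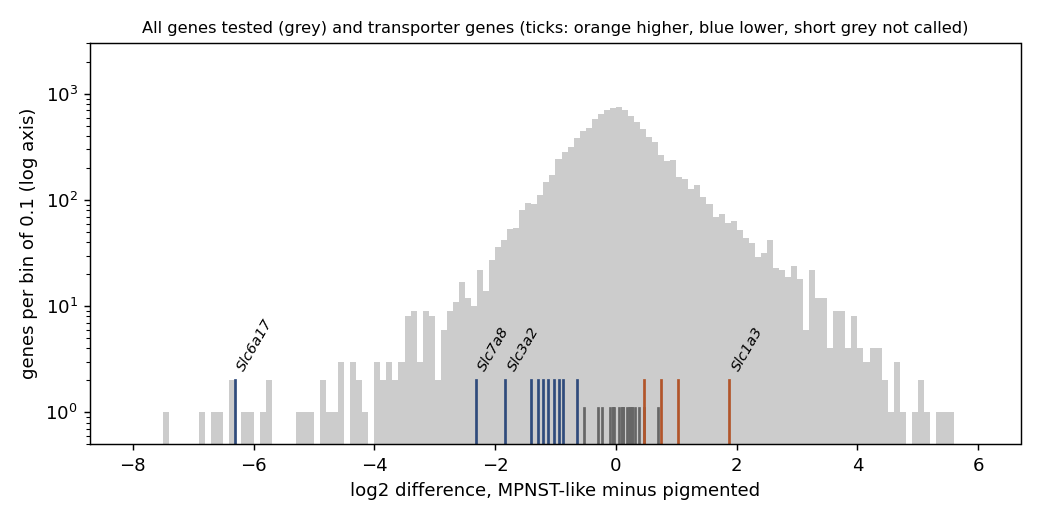
Histogram of the log2 difference, MPNST-like minus pigmented, of 11984 genes in bins of 0.1 with a log count axis; ticks mark the 36 detected transporter genes, tall and coloured where called. The tick of Slc6a17 stands in the sparse left tail and most of the others lie in the body of the distribution.

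Within the Slc6 family, which holds the sodium-driven neurotransmitter carriers, 10 of 19 genes were detected, of which 1 rose, 3 fell and 6 were not called. Slc6a17 encodes a carrier that loads neutral amino acids into synaptic vesicles of neurons. Its levels were 4.68, 4.40, 4.55, 4.59 and 6.63 in MPNST-like 1 to 5, against 11.89, 11.12, 10.64, 11.12 and 11.64 in pigmented 1 to 5. It was bright in all pigmented tumors, at or just above background in MPNST-like 1 to 4 and higher in MPNST-like 5, and the groups did not overlap. The log2 difference was -6.31 with an SE of 0.42 (5 tumors in each group, adjusted p = 7.7e-06). The probe was detected in 4 of 5 MPNST-like tumors, and since most of these lay near the lowest detected level, background limits the size of the difference. A second probe of Slc6a17, detected in 1 MPNST-like and 5 pigmented tumors, fell by 2.05 (SE 0.42, adjusted p = 0.0032), and the mean of both probes fell by 4.18. The difference was -6.96 within chip 1 and -5.88 within chip 2.

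MPNST-like 5, the tumor with the highest Slc6a17 level of its group, was also the one with the highest mean of the melanocyte markers (8.33). That mean was 4.33, 4.75, 6.40 and 5.71 in MPNST-like 1 to 4 and 11.42 to 11.76 in the pigmented tumors. The order of Slc6a17 among MPNST-like 1 to 4 cannot be read at this level. Without MPNST-like 5 the Slc6a17 difference was -6.73.

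**Figure D3:**
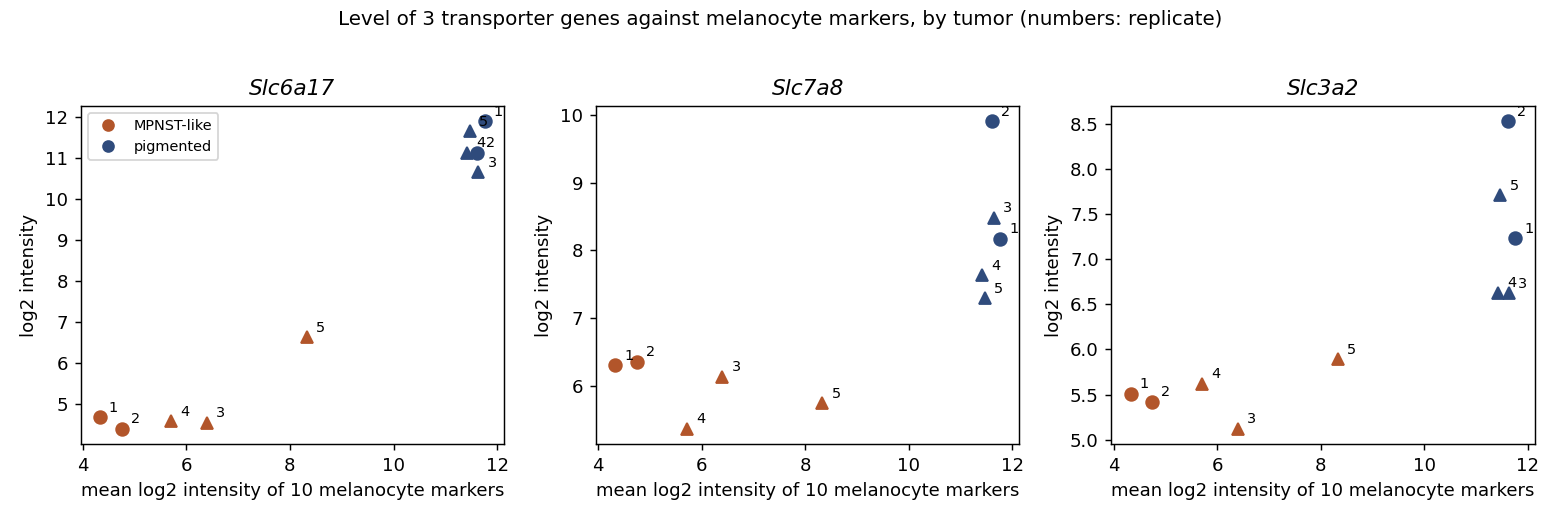
Level of Slc6a17, Slc7a8 and Slc3a2 in each tumor (log2 intensity, vertical axis) against the mean log2 intensity of 10 melanocyte markers (horizontal axis); numbers are replicates, circles chip 1 and triangles chip 2. The pigmented tumors cluster at marker means of 11.42 to 11.76 while Slc7a8 and Slc3a2 spread among them, and MPNST-like 5 lies between the groups for Slc6a17.

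Slc6a8, the creatine carrier, was at 9.30, 9.40, 9.49, 9.24 and 9.82 in MPNST-like 1 to 5, against 10.69, 11.13, 10.58, 10.15 and 10.36 in pigmented 1 to 5. Every MPNST-like tumor lay below every pigmented tumor, and the gene fell by 1.13 (SE 0.20, adjusted p = 0.0012, 2.19-fold lower), though the authors' values gave -1.80. Slc6a15, a carrier of branched-chain amino acids and proline, was at 6.23, 4.27, 4.23, 5.64 and 5.55 in MPNST-like tumors, against 6.81, 5.89, 5.75, 6.43 and 7.10 in pigmented tumors. MPNST-like 1 lay among the pigmented tumors, while MPNST-like 2 and 3 were at background. Slc6a15 fell by 1.21 (SE 0.42, adjusted p = 0.040), a call that ended in 15 of 24 alternatives of the processing or the choice of tumors. Another detected probe of Slc6a15, near background, stood at 0.04 (SE 0.17, adjusted p = 0.89).

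Slc6a9, the glycine carrier GlyT1, went the other way. It was at 7.94, 7.36, 6.91, 7.43 and 6.84 in MPNST-like tumors, against 5.46, 6.44, 6.88, 6.04 and 6.51 in pigmented tumors. MPNST-like 5 lay just below pigmented 3, and the other MPNST-like tumors lay above all pigmented ones. Slc6a9 rose by 1.03 (SE 0.29, adjusted p = 0.015), by 1.70 within chip 1 and 0.59 within chip 2, with neither chip alone reaching the threshold. The call also ended in the authors' values (0.72) and without the 3 tumors with muscle RNA (1.11, adjusted p = 0.056).

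Slc6a6, which takes up taurine, was bright in all tumors, at 11.52 to 12.06 in MPNST-like and 11.09 to 11.87 in pigmented tumors. Its difference was 0.10 (95% confidence interval -0.30 to 0.50, adjusted p = 0.69), but -0.68 in the authors' values. The GABA carrier Slc6a13 was at 5.88 and 6.15 in MPNST-like 1 and 3 and at 4.64 to 4.74 in the other MPNST-like tumors, against 4.20 to 5.22 in pigmented tumors. It was not called (0.70, 95% confidence interval -0.04 to 1.44, adjusted p = 0.12). The serotonin carrier Slc6a4, the brain proline carrier Slc6a7 and the neutral amino acid carriers Slc6a18 and Slc6a19, known from kidney and gut, stayed between 4.19 and 5.43 in all tumors and were not called.

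Of the genes of the heteromeric carriers, 2 fell and 1 rose. Slc3a2, the heavy chain known as CD98 or 4F2hc, and the light chain gene Slc7a8 (LAT2, large neutral amino acids) fell, and the light chain gene Slc7a6 (y+LAT2, cationic amino acids and glutamine) rose. Slc3a2 was at 5.51, 5.42, 5.12, 5.62 and 5.89 in MPNST-like tumors, against 7.23, 8.53, 6.62, 6.63 and 7.71 in pigmented tumors. The groups did not overlap, and the pigmented tumors spread more (SD 0.80) than the MPNST-like tumors (SD 0.28). Slc3a2 fell by 1.83 (SE 0.34, adjusted p = 0.0018, 3.56-fold lower), with -2.41 within chip 1 and -1.45 within chip 2. Without background correction the difference was -1.04.

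Slc7a8 was at 6.30, 6.35, 6.13, 5.36 and 5.74 in MPNST-like tumors, against 8.17, 9.91, 8.48, 7.63 and 7.29 in pigmented tumors. All pigmented tumors lay above all MPNST-like tumors. Slc7a8 fell by 2.32 (SE 0.43, adjusted p = 0.0018, 5.0-fold lower), and its second detected probe fell by 1.59 (SE 0.52, adjusted p = 0.034). Pigmented 2 was the highest tumor for both Slc3a2 and Slc7a8, and without it the differences were -1.54 and -1.92. Pigmented 2 also had the highest mean of 3 erythrocyte markers, 11.99, against 7.88 to 9.52 in the other pigmented tumors and 6.58 to 8.87 in MPNST-like tumors. The mean of 21 genes of the amino acid response, a list described below, was also highest in pigmented 2, at 8.21. It was 7.09 to 7.52 in the other pigmented tumors and 7.68 to 8.17 in MPNST-like tumors. The part of blood RNA or of an amino acid response in these levels was not tested.

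Slc7a6 was at 5.56, 5.78, 5.64, 5.37 and 5.38 in MPNST-like tumors, against 4.28, 4.82, 4.42, 5.35 and 5.16 in pigmented tumors. Pigmented 4 lay just under the lowest MPNST-like tumor, the groups did not overlap, and pigmented 1 and 3 were at background. Slc7a6 rose by 0.74 (SE 0.22, adjusted p = 0.019). The call ended within either chip alone, in the authors' values (0.54) and with the keratinocyte marker mean as a covariate (0.61, adjusted p = 0.094). Its neighbour on the other strand, Slc7a6os, was at 6.37 to 6.83 in MPNST-like and 6.24 to 6.69 in pigmented tumors and was not called (0.19, adjusted p = 0.32).

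Other light chains were not called. Slc7a7 (y+LAT1), known from macrophages, kidney and gut, was at 5.23 to 6.17 in MPNST-like and 5.16 to 6.58 in pigmented tumors (-0.23, 95% confidence interval -0.80 to 0.34). Slc7a11, the cystine and glutamate exchanger xCT, whose loss in the subtle gray mouse reduces yellow pigment, was at 4.18, 6.31, 4.74, 4.74 and 4.57 in MPNST-like tumors, against 4.28, 4.96, 4.31, 4.82 and 4.26 in pigmented tumors. MPNST-like 2 stood apart from all other tumors, and the difference was 0.38 (95% confidence interval -0.39 to 1.16, adjusted p = 0.42). Slc7a10 (Asc-1), detected on 3 arrays, was highest in MPNST-like 5 (5.49) and pigmented 4 (5.16), which are among the 3 tumors high in muscle markers. The same 3 tumors had the highest mean of 5 adipocyte markers, 6.97 and 7.06 in MPNST-like 2 and 5 and 6.74 in pigmented 4, against 4.34 to 5.95 in the others. Slc7a5 and Slc3a1 have no probe under these symbols in the annotation and were not analysed here.

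Among the carriers of cationic amino acids, Slc7a1 was detected on 0 arrays. Slc7a2, known from liver, muscle and activated macrophages, was at 4.69 to 5.06 in MPNST-like and 4.40 to 4.93 in pigmented tumors and was not called (0.32, adjusted p = 0.10). Slc7a4, a relative of these carriers whose substrate is not settled, was at 4.29, 4.61, 4.48, 4.49 and 4.70 in MPNST-like tumors, against 5.22, 6.01, 5.04, 5.04 and 6.04 in pigmented tumors. It was detected in 2 MPNST-like and 5 pigmented tumors, and the groups did not overlap. Slc7a4 fell by 0.95 (SE 0.23, adjusted p = 0.0074), or by 0.33 without background correction, and the call ended within either chip alone.

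**Figure D4:**
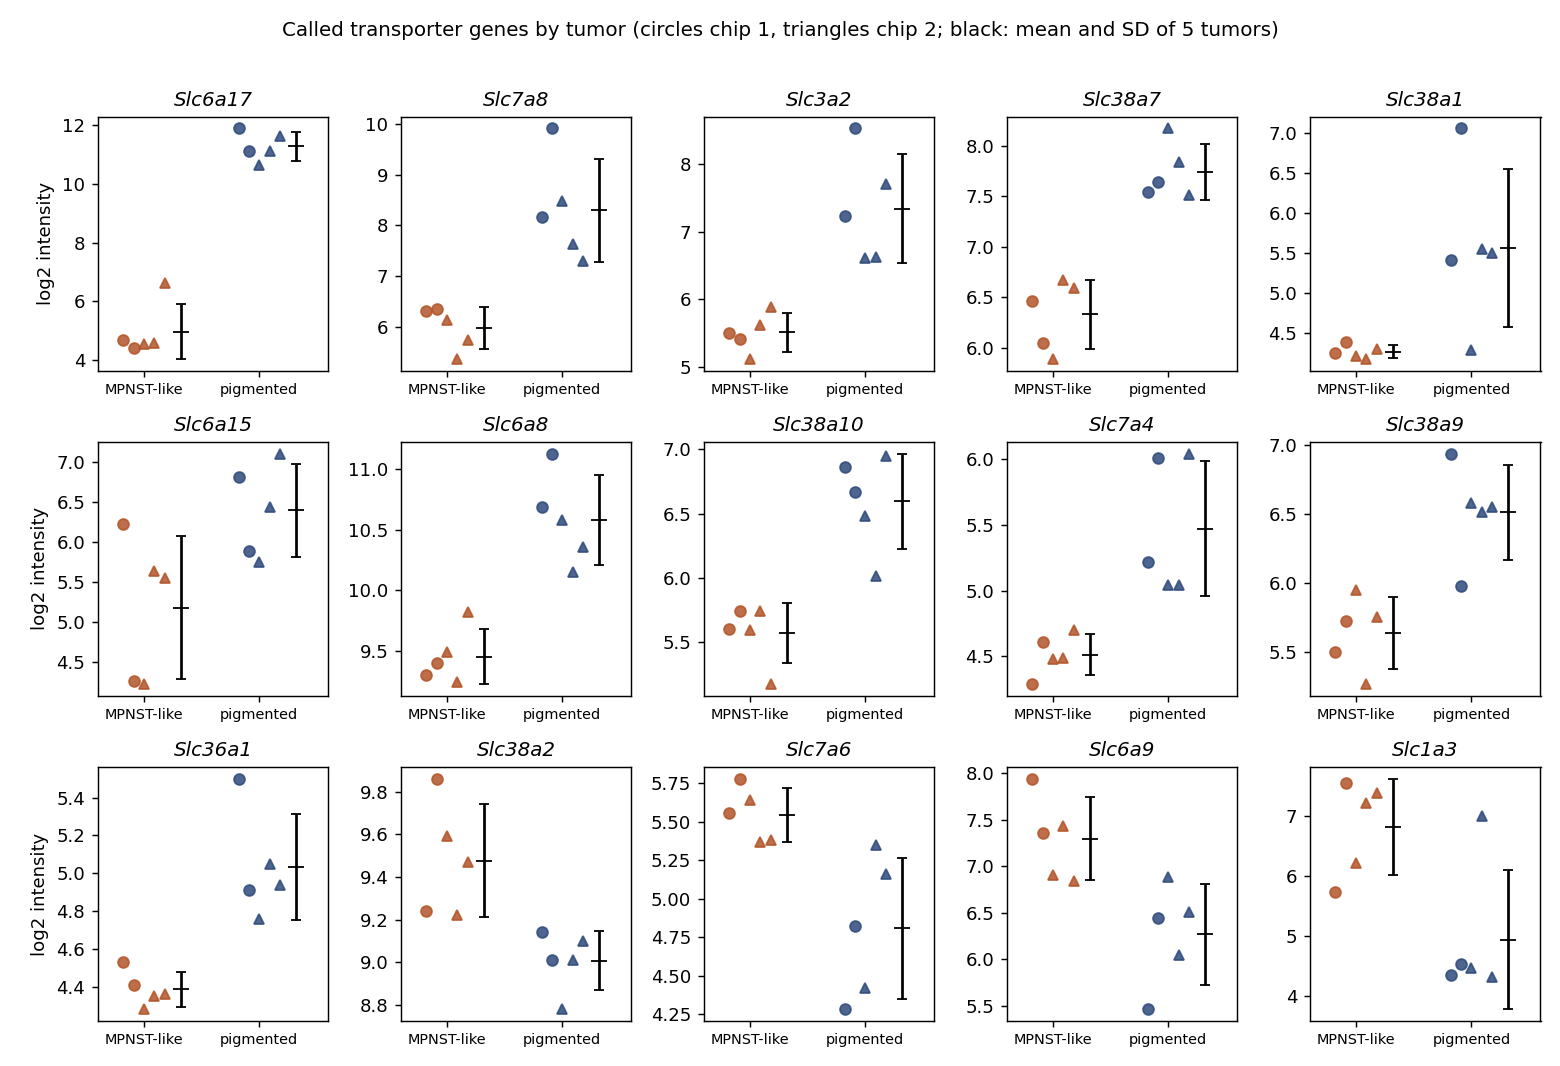
Log2 intensity of the 15 called transporter genes in each tumor, MPNST-like left and pigmented right, with the mean and SD of 5 tumors in black, circles for chip 1 and triangles for chip 2; each panel has its own vertical axis. Slc6a17 shows the widest gap, and Slc1a3, Slc6a15, Slc6a9 and Slc38a1 overlap between the groups.

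Genes of 3 carriers of the lysosomal membrane fell. Slc38a7 (SNAT7), which exports glutamine and asparagine from lysosomes, was at 6.46, 6.05, 5.89, 6.67 and 6.59 in MPNST-like tumors, against 7.54, 7.64, 8.17, 7.84 and 7.51 in pigmented tumors. The groups did not overlap, and Slc38a7 fell by 1.41 (SE 0.20, adjusted p = 3.7e-04, 2.65-fold lower). Slc38a9, the arginine sensor and carrier that signals to mTORC1 from the lysosome, was at 5.50, 5.73, 5.95, 5.27 and 5.76 in MPNST-like tumors, against 6.94, 5.98, 6.58, 6.52 and 6.55 in pigmented tumors. Pigmented 2 lay just above MPNST-like 3, the other pigmented tumors lay well above the MPNST-like ones, and the groups did not overlap. Slc38a9 fell by 0.88 (SE 0.20, adjusted p = 0.0051), and of its other detected probes one fell by 0.52 (SE 0.14, adjusted p = 0.015) and one stood at 0.06 (adjusted p = 0.84).

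Slc36a1 (PAT1), a proton-coupled carrier of small amino acids in the lysosomal membrane, was at 4.53, 4.41, 4.28, 4.35 and 4.36 in MPNST-like tumors, against 5.50, 4.91, 4.76, 5.05 and 4.94 in pigmented tumors. It was detected in 0 MPNST-like and 5 pigmented tumors. Against the lowest detected signal of each array, its mean was at least 1.45-fold lower in MPNST-like tumors. This bound, too, leaves out the spread between tumors. The groups did not overlap, and the difference was -0.65 (SE 0.16, adjusted p = 0.0075), or -0.21 without background correction. After median scaling the differences were -0.86 for Slc38a7 and -0.50 for Slc36a1, and that of Slc38a9 was no longer called (-0.35). The call of Slc36a1 ended without the 3 tumors with muscle RNA (adjusted p = 0.062).

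Carriers of the Slc38 family at the cell surface differed among themselves, and over the family 1 of 7 detected genes rose, 4 fell and 2 were not called. Slc38a1 (SNAT1, glutamine and other neutral amino acids) was detected in 0 MPNST-like tumors, at 4.18 to 4.39, and in 4 pigmented tumors. Its pigmented levels were 5.42, 7.06, 4.29, 5.55 and 5.50, so pigmented 3 was at background while pigmented 2 was highest. Against the lowest detected signal of each array, its mean was at least 2.09-fold lower in MPNST-like tumors. This bound leaves out the spread between tumors. Slc38a1 was called lower, with a difference of -1.29 (SE 0.39, 95% confidence interval -2.15 to -0.43, adjusted p = 0.023). That call ended without background correction (-0.51), within either chip and without the tumors with muscle RNA (-1.35, adjusted p = 0.097). Another detected probe of Slc38a1 stood at -0.77 (adjusted p = 0.12) and a further one at -0.05 (adjusted p = 0.83).

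Slc38a2 (SNAT2), the system A carrier whose RNA is known to rise on amino acid shortage, was at 9.24, 9.86, 9.59, 9.22 and 9.47 in MPNST-like tumors, against 9.14, 9.01, 8.78, 9.01 and 9.10 in pigmented tumors. The groups did not overlap by a small margin, and Slc38a2 rose by 0.47 (SE 0.16, adjusted p = 0.036). The second detected probe was imprecise (-0.11, SE 0.51, adjusted p = 0.88), the authors' values gave -0.12, and the call ended in 11 other alternatives. Slc38a10, a broadly expressed member of the family, was at 5.60, 5.74, 5.59, 5.74 and 5.17 in MPNST-like tumors, against 6.86, 6.67, 6.48, 6.01 and 6.95 in pigmented tumors. These groups did not overlap, and Slc38a10 fell by 1.03 (SE 0.20, adjusted p = 0.0023), though by 0.50 and without a call after median scaling. Its other detected probes stood at -0.76 (adjusted p = 0.052) and -0.40 (adjusted p = 0.10). Slc38a5 (SNAT5), which is also expressed in erythroid cells, was at 6.69 in pigmented 2, the tumor highest in erythrocyte markers. It was at 4.18 to 4.58 in every other tumor. The next highest erythrocyte marker means were 9.52, 9.26 and 8.87 in pigmented 1, pigmented 5 and MPNST-like 2. Slc38a5 was at 4.50, 4.18 and 4.27 in these tumors, and the part of blood RNA in its level was not tested. Slc38a4, known mainly from liver, reached 5.72 in MPNST-like 4 and stood at 4.26 to 4.95 elsewhere.

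In the Slc1 family 5 of 7 genes were detected and 1 was called. Slc1a3 (GLAST), which takes up glutamate and is best known from astrocytes, was at 5.74, 7.55, 6.21, 7.22 and 7.38 in MPNST-like tumors, against 4.36, 4.54, 4.47, 7.0 and 4.32 in pigmented tumors. The other pigmented tumors were at background, and pigmented 4 lay among the MPNST-like tumors. The probe was detected in 5 MPNST-like tumors and 1 pigmented tumor, so background limits the size of the difference. Slc1a3 rose by 1.88 (SE 0.55, adjusted p = 0.019), with 2.20 within chip 1 and 1.67 within chip 2, neither called, and without pigmented 4 by 2.40 (adjusted p = 7.2e-04).

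Pigmented 4 also stood apart in markers of other cell types. Its mean of 10 keratinocyte markers was 9.49, against 6.65 to 8.09 in the other pigmented tumors. That mean was 9.45 to 9.70 in MPNST-like 2 to 5 and 6.75 in MPNST-like 1, the tumor with the lowest Slc1a3 level of its group. MPNST-like 3, with the highest keratinocyte mean (9.70), was at 6.21 for Slc1a3. Pigmented 2, above MPNST-like 1 in that mean (8.09), was at background for Slc1a3 (4.54). Pigmented 4 and MPNST-like 2 and 5, at 7.0, 7.55 and 7.38 for Slc1a3, are also the 3 tumors high in muscle and adipocyte markers. MPNST-like 4, at 7.22, was low in both. Without the 3 tumors with muscle RNA Slc1a3 was still called higher. The mean of 10 fibroblast markers was 9.48 in pigmented 4, 6.13 to 7.81 in the other pigmented tumors and 10.39 to 11.19 in MPNST-like tumors. The mean of 9 macrophage markers was 8.61 in pigmented 4, 6.43 to 7.45 in the other pigmented tumors and 8.37 to 9.97 in MPNST-like tumors. With the keratinocyte mean as a covariate the Slc1a3 difference was 1.02 (adjusted p = 0.088). The part of keratinocyte, fibroblast, macrophage, muscle and adipocyte RNA was not tested.

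The other detected Slc1 genes were not called. Slc1a4 (ASCT1), which exchanges alanine, serine and cysteine, was at 6.80, 5.47, 5.99, 6.86 and 5.55 in MPNST-like tumors, against 5.49, 6.32, 5.53, 5.0 and 6.03 in pigmented tumors. The groups overlapped widely (0.46, 95% confidence interval -0.28 to 1.20), and after median scaling the difference was called (1.0, adjusted p = 0.023). The glutamate carriers Slc1a1, Slc1a6 and Slc1a7 lay between 4.14 and 5.16 in all tumors. Slc1a5 (ASCT2), a glutamine carrier, was detected on 0 arrays with any of its 5 probes, so nothing can be said of its difference.

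Of the 3 genes of the Slc43 family, which carries large neutral amino acids without sodium, Slc43a1 and Slc43a2 were detected and not called. Slc43a1 was at 5.0 to 5.78 in MPNST-like and 4.55 to 5.52 in pigmented tumors (0.24, 95% confidence interval -0.22 to 0.70). Slc43a2 was at 4.45 to 4.81 in MPNST-like and 4.18 to 4.55 in pigmented tumors. The third, Slc43a3, known as a carrier of purine nucleobases, was detected on 2 arrays.

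For 12 of the 22 genes that missed the filter no probe was detected on any array. Besides Slc1a5 and Slc7a1 they were Slc1a2, Slc36a3, Slc38a8, Slc38a11, Slc6a3, Slc6a5, Slc6a14, Slc6a20a, Slc6a20b and Slc7a12. The transporters of dopamine (Slc6a3) and of glycine at inhibitory synapses (Slc6a5) are among these. Slc6a11, Slc6a21, Slc7a14 and Slc7a15 were detected on 1 array, and Slc38a3, Slc43a3, Slc6a2, Slc6a12, Slc7a9 and Slc7a13 on 2. Just inside the filter, Slc38a5 and Slc7a10 were detected on 3 arrays. When all genes were tested without the filter, 0 of the 22 were called by limma, 1 had an unadjusted p under 0.05, and none differed by more than 0.28 on the log2 scale.

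Genes of the pathways that use or sense these amino acids were described from 6 lists. In the list of amino acid sensing by mTORC1, 12 of 21 tested genes were lower and 2 higher (median -0.64), against 20.2% lower and 18.6% higher over all genes. Median scaling gave 2 lower and 3 higher, and the authors' values gave 14 lower and 0 higher. Without the 3 tumors with muscle RNA 7 were lower and 0 higher, as with the keratinocyte covariate. Rragd, a Rag GTPase that recruits mTORC1 to the lysosome, fell by 2.25 (SE 0.23, adjusted p = 6.6e-05), and Flcn, which acts on Rag GTPases, fell by 1.44. The scaffold gene Lamtor1 fell by 1.08 and Depdc5, a gene of the inhibitor complex GATOR1, had a difference of -1.0 (SE 0.21). Slc38a9 belongs to this list too.

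In the list of glutamine, glutamate and arginine metabolism 5 of 11 genes were lower and 1 higher (median -0.53). Over all genes, 20.2% were lower and 18.6% higher. Ass1 and Asl, consecutive enzymes of arginine synthesis, fell by 2.42 (SE 0.47) and 1.94 (SE 0.23), and the mitochondrial aminotransferase gene Got2 fell by 1.59. Arg1, the arginine-splitting enzyme of liver and of some macrophages, rose by 2.70 (SE 0.81, adjusted p = 0.022). Of 9 macrophage markers 8 were higher and 0 lower, with a summed intensity of 5070 to 13600 in MPNST-like and 1320 to 7820 in pigmented tumors, and their part in Arg1 was not tested. After median scaling 3 genes of this list were lower and 2 higher. Without background correction, with the keratinocyte covariate and within either chip alone 0 were higher, so the Arg1 call ended there.

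Of 9 genes of cystine and glutathione use 5 were lower and 1 higher (median -0.72), against 20.2% and 18.6% over all genes. Cd44, which is known to stabilize xCT at the membrane, fell by 1.52 (SE 0.27), Gclm, a subunit of the enzyme that starts glutathione synthesis, fell by 1.12 (SE 0.30), and the glutathione synthetase gene Gss fell by 0.75. The gamma-glutamyl transferase gene Ggt5 rose by 0.79. After median scaling 2 were lower and 1 higher, and without the tumors with muscle RNA 2 were lower and 0 higher. In the amino acid response list 3 of 21 genes were higher and 1 lower (median 0.35), against 18.6% and 20.2% over all genes. After median scaling 7 were higher and 0 lower, and without pigmented 2 there were 6 higher and 1 lower. Nupr1, a stress-induced chromatin protein gene, rose by 2.95 (SE 0.63) and the alanine aminotransferase gene Gpt2 by 2.25 (SE 0.28, adjusted p = 1.9e-04). Atf4, the transcription factor of this response, rose by 0.73 (adjusted p = 0.047), and the serine hydroxymethyltransferase gene Shmt2 fell by 0.89.

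Of 10 genes of creatine, taurine and monoamine metabolism 0 rose and 1 fell (median 0.01). Over all genes, 18.6% rose and 20.2% fell. The gene of the list that fell was the taurine synthesis gene Csad (-0.97, SE 0.19). Of 9 amino acid transporters outside the 7 families 0 rose and 3 fell (median -0.31), against the same shares of all genes. The genes that fell were the lysosomal histidine and peptide carrier gene Slc15a4 (-1.42, SE 0.21) and the lysosomal cystine exporter gene Ctns (-1.35, SE 0.28). The mitochondrial ornithine carrier gene Slc25a15 fell too (-0.88, SE 0.19). The others were not called, among them Slc15a3 (-0.81) and Slc17a5 (-0.05). After median scaling 2 genes of that list were lower and 2 higher.

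The sizes of the differences moved with the processing more than the directions did. Over all genes, median scaling moved the median difference to 0.33 and the authors' processing gave -0.22, so differences are relative to the quantile normalization. Of the 15 called genes, 1 (Slc6a17) passed in all 24 alternatives, in which its difference ran from -6.96 to -4.18. The difference ran from -2.72 to -1.57 for Slc7a8, -2.41 to -1.04 for Slc3a2, -1.70 to -0.86 for Slc38a7 and -1.80 to -0.77 for Slc6a8, and each of these 4 calls ended only within chip 1, which held 2 tumors of each group. It ran from -1.92 to -0.51 for Slc38a1, 0.84 to 2.40 for Slc1a3 and 0.59 to 1.70 for Slc6a9. Every called gene had the same sign in both chips.

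**Figure D5:**
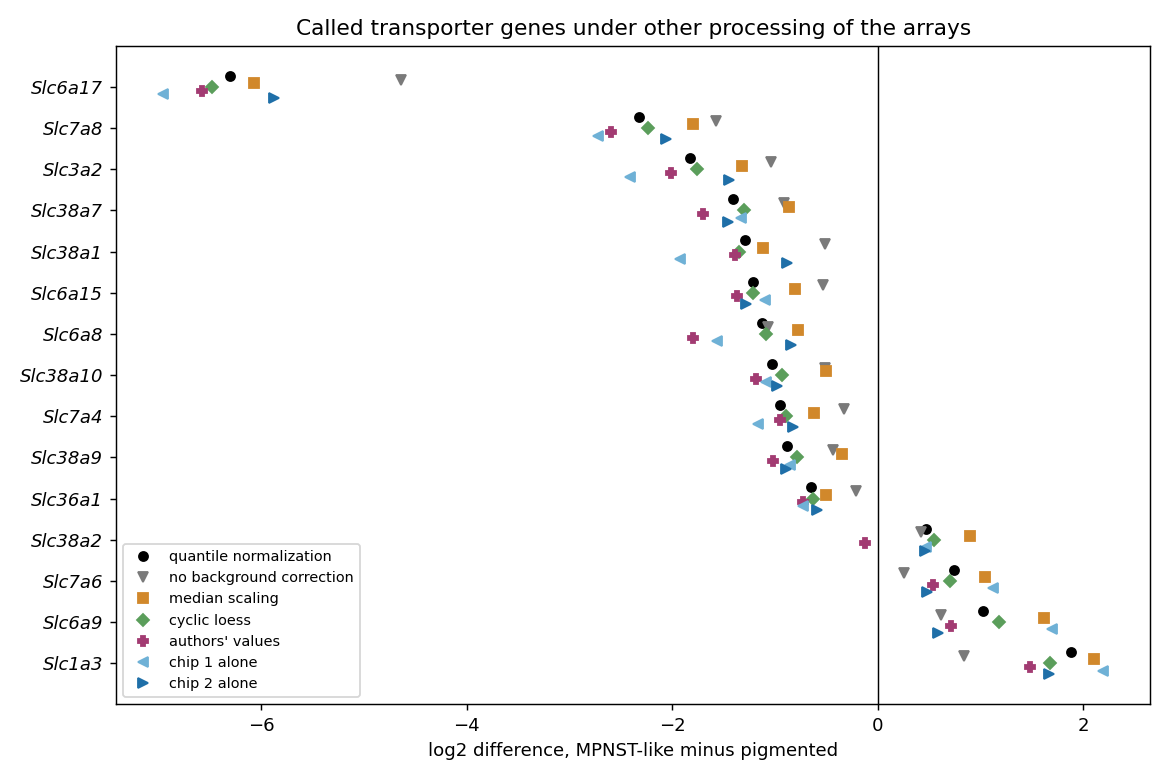
Log2 difference, MPNST-like minus pigmented, of the 15 called transporter genes under the quantile normalization used in the text (black) and 6 other ways of processing or splitting the arrays. All points of the 11 lower genes lie left of 0, and of the higher genes Slc38a2 has a point on the other side, at -0.12 in the authors' values.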

How the data were processed

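The deposited non-normalized table lists, per the file headers, the average signal (intensity) of 45281 probes on single-colour Illumina arrays with their detection p-values, for 10 tumors on 2 chips, each with tumors of both groups. No label or header names the scanning software. The authors also deposited log2 values, whose normalization is unknown; these were used as an alternative. In limma 3.58.1 (R 4.3.3) the intensities went through normexp background correction from the detection p-values (neqc) with an offset of 16, quantile normalization and log2. Probes detected at p under 0.05 on at least 3 arrays were kept (22480), and the brightest kept probe stood for each gene. Of 120 probes of the 58 genes, 52 were kept, and all 120 matched RefSeq through Entrez identifiers with 0 changed symbols. Group differences came from lmFit and eBayes, with Benjamini-Hochberg adjustment over all genes. The number of arrays limits the precision. Python 3.11.15 and matplotlib 3.10.9 were used for plots.

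The genes and lists were chosen with earlier results of these data known. Values are given for called genes with a log2 difference of at least 1, the brightest gene of each family and a fixed set, and smaller calls and other genes were added after their values were seen. Related lists name up to 4 called genes with the largest differences. Slc15a3 and Slc17a5, not called, were named in addition. Alternatives were other background corrections, scalings, filters and variance models, the mean of probes, the authors' values, chip as a block, each chip alone, a keratinocyte covariate and leaving out tumors.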

Additional observations from a re-analysis of the deposited data

Results flagged for a closer look

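Of 72 groups of 5 tumors (36 genes in 2 groups), 7 held a tumor set apart by a gap of over 0.71 of the group's range. By chance this cut-off marks about 1 in 20 groups when values are normally distributed. In several flagged groups the other tumors lay near background, where that rate need not hold. Slc6a17 was at 6.63 in MPNST-like 5, against 4.40 to 4.68 in the other MPNST-like tumors. Slc7a11 was at 6.31 in MPNST-like 2, against 4.18 to 4.74, and a second detected probe of the gene was also highest in that tumor, at 5.56. Slc38a10 was at 5.17 in MPNST-like 5, against 5.59 to 5.74. In pigmented 4, Slc1a3 was at 7.0, against 4.32 to 4.54 in the other pigmented tumors, and Slc6a19 was at 5.34, against 4.19 to 4.48. Slc38a5 was at 6.69 in pigmented 2, against 4.18 to 4.58, and Slc7a6os was at 6.69 in pigmented 1, against 6.24 to 6.35.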

How the results depend on the processing

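Counts of called genes followed the scaling. Median scaling gave 3845 genes higher and 902 lower, with 8 transporter genes higher and 8 lower, and the authors' values gave 1220 and 3820, with 1 and 11. Chip 1 alone gave 255 genes higher and 135 lower, with 0 transporter genes higher and 1 lower. Chip 2 alone gave 1593 and 1783, with 0 and 8. The keratinocyte covariate gave 1638 and 1640, with 1 and 10. Leaving out 1 tumor at a time gave 1841 to 2375 genes higher and 2018 to 2620 lower, and 3 to 4 transporter genes higher and 10 to 11 lower. The sign of 1 called gene changed, Slc38a2 at -0.12 in the authors' values, and the cause was not tested. Of 21 genes not called, 5 passed in some alternative. Slc7a2 passed in 2, and Slc1a4, Slc6a13, Slc43a1 and Slc7a6os in 1 each. The strict filter kept 19 of the transporter genes. No paired analysis was possible because the replicate numbers only name the tumors. Genes at or near background have differences that the background limits.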
